A study of Mus musculus with 81 samples.

Results

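The nuclear factor I (NFI) family of transcription factors is encoded in the mouse by 4 genes, Nfia, Nfib, Nfic and Nfix. They were taken by name from the 22869 genes of a table of single pancreas cells, and all 4 were found, in 11 transcript rows. Each gene is given by its transcript row of highest mean, so the choice of row used the levels themselves. The levels below are therefore descriptions and carry no test. The cells came from pancreata of CD1 mice, wild type, taken at embryonic day 13.5 and dissociated with trypsin; there was no treatment and no second genotype. Each of the 81 libraries holds 1 cell, captured on a microfluidic device and amplified as full-length cDNA. The labels name no animal, so the 81 cells form 1 sample and every SD is a spread over cells. Levels are taken to be in RPKM, a unit inferred from the values: read numbers adjusted for the length of the transcript and the size of the library, which allows genes to be set side by side.

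NFI proteins bind a palindromic DNA site as dimers, through a DNA-binding domain at the start of the protein that all members share. They both activate and repress transcription, and they are known mainly from differentiation in other organs. Nfia is known for glial differentiation, Nfib for lung maturation and brain development, Nfix for fetal muscle and brain, and Nfic for tooth root formation.

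In mm9 coordinates, Nfia lies on the plus strand of chromosome 4 (97248634 to 97785567) and Nfib on its minus strand (81936077 to 82151212). Nfic lies on the minus strand of chromosome 10 (80858936 to 80889918) and Nfix on the minus strand of chromosome 8 (87231498 to 87324239). The rows of 1 gene repeat each other: on the log2 scale every other row correlated with the row used at r of at least 0.99 over the 81 cells, so isoforms were not compared.

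The following stretch of 60 bases is shown for its conservation, not as the place where reads are hardest to tell apart. It had as many positions identical in all 4 genes as any gap-free stretch of this length within 1 exon of the coding sequences. It lies in exon 2 of the GENCODE vM21 transcript matched to each row, 5′ to 3′ on the coding strand. Capitals mark the 12 positions that are not the same in all 4 genes, and the other 48 are identical. In GRCm38 the stretches are at chr4:97783134-97783193 (plus strand, Nfia), chr4:82498658-82498717 (minus, Nfib), chr10:81420687-81420746 (minus, Nfic) and chr8:84772204-84772263 (minus, Nfix).
Nfia: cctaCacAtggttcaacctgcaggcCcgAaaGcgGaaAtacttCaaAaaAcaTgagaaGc
Nfib: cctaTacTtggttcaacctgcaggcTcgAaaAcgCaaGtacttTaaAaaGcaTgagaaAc
Nfic: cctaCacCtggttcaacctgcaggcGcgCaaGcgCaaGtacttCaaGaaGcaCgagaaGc
Nfix: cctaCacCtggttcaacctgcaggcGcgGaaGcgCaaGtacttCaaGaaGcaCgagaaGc
Within this stretch Nfic and Nfix differed at 1 of the 60 bases, and the other pairs at 8 or 9. Over the aligned coding bases, pairs of members were 65.4% (Nfib and Nfic) to 72.5% (Nfia and Nfix) identical. The longest identical run in any pair was 32 bases, between Nfic and Nfix, and it was 17 bases between Nfia and Nfib. No window of 50 bases in any of the 4 transcripts occurred in a transcript of another NFI gene. In transcripts of other genes, 92 of 1354 windows of Nfix (6.79%) and 24 of 6188 of Nfic (0.388%) had a copy, and none of Nfia or Nfib did. The Nfix windows come from a GENCODE transcript shorter than the one behind the deposited values.

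From the step that 1 read makes in each column, the libraries were estimated to hold a median of 3520341 reads. C3, C61, C94 and C43, here called shallow, held an estimated 19733, 72408, 196825 and 417512 reads, and each of the other 77 libraries held at least 1666221 reads. In a cell of median depth 1 RPKM, the level taken as detection, stands for an estimated 33.5 reads of Nfia, 29.7 of Nfib, 22 of Nfic and 9.22 of Nfix. Cells were put into classes by markers, at least 3 of a list at 10 RPKM. Non-mesenchymal lists came first, and where several passed, the list with the largest share of its markers was taken. A cell was called mesenchymal only where no other list passed. There were 65 mesenchymal cells, 5 epithelial and 2 endocrine cells (together the epithelial side), 5 macrophage cells and 2 endothelial cells. C45 had neural or glial markers, and C13 reached 3 markers of no list. C13 had 2 epithelial markers, 1 mesothelial marker and 1 mesenchymal marker at 10 RPKM. Mesothelial and erythroid lists were also used, and no cell took either class. Near the cut, 2 cells reached 2 markers of a non-mesenchymal list as their most, and 3 mesenchymal cells had exactly 3 markers. Exactly 3 markers of its non-mesenchymal class were found in 1 cell, C3, which had 5 mesenchymal markers. Most cells of the epithelial side (6 of 7) and of the macrophage class (4 of 5) also had at least 3 mesenchymal markers. Although the study's title speaks of progenitors, Pdx1, the regulator of pancreatic identity, reached 1 RPKM in 1 cell and Ptf1a, needed for acinar cells, had no value above 0 in any cell.

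Nfib was the most abundant member. Over the 81 cells it ranged from 0.173 RPKM in C56 to 277 RPKM in C41, with a median of 75.3 RPKM and a mean of 84 ± 61.4 RPKM (SD, n = 81 cells). It reached 1 RPKM in 80 of 81 cells (98.8%, exact Clopper-Pearson 95% interval 93.3% to 99.97%, which covers counting error only). Its mean was above that of 98.1% of all 22869 genes, and 240 genes in all, Nfib included, were detected in at least as many cells.

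Nfia came second, from 0.073 RPKM in C13 to 153 RPKM in C11, with a median of 31.7 RPKM and a mean of 39.5 ± 32.2 RPKM. It reached 1 RPKM in 77 of 81 cells (95.1%, 87.8% to 98.6%). The 4 cells below that level, C13, C24, C31 and C81, were not shallow ones: they held an estimated 2.1, 4.1, 4.1 and 12.2 reads of Nfia, in libraries of 1971033 to 3492291 reads. The number of genes at 1 RPKM ran from 2353 (C81) to 6311 (C72) over the 81 cells. It was also low in C13 (2673) and C31 (2973), but 5328 in C24. Its part in the Nfia values was not tested. Nfia was above 0 in every cell, as was Nfib.

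Nfic and Nfix were scarce. Nfic had a median of 0.435 RPKM, a mean of 3.33 ± 6.64 RPKM and a highest value of 43.4 RPKM in C13. It reached 1 RPKM in 34 cells (42%, 31.1% to 53.5%) and 10 RPKM in 9. Of the 40 cells numbered 1 to 48, 21 had Nfic at 1 RPKM, against 13 of the 41 numbered 49 to 96. Nfix was listed at 0 in the median cell, with a mean of 3.35 ± 12.2 RPKM that rests on few cells. It reached 1 RPKM in 17 cells (21%, 12.7% to 31.5%) and 10 RPKM in 8. Another 10 cells held Nfix above 0 but under 1 RPKM, and in 9 of the 27 cells above 0 it rested on at most 3 estimated reads. Of the 8 cells at 10 RPKM of Nfix, 7 were mesenchymal, from 14.5 RPKM in C92 to 94.5 RPKM in C59, and the other was the epithelial cell C91. Among all 81 cells, 65 were mesenchymal. The means of Nfic and Nfix are thus nearly equal, although 34 cells had Nfic and 17 had Nfix at 1 RPKM.

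**Figure D1:**
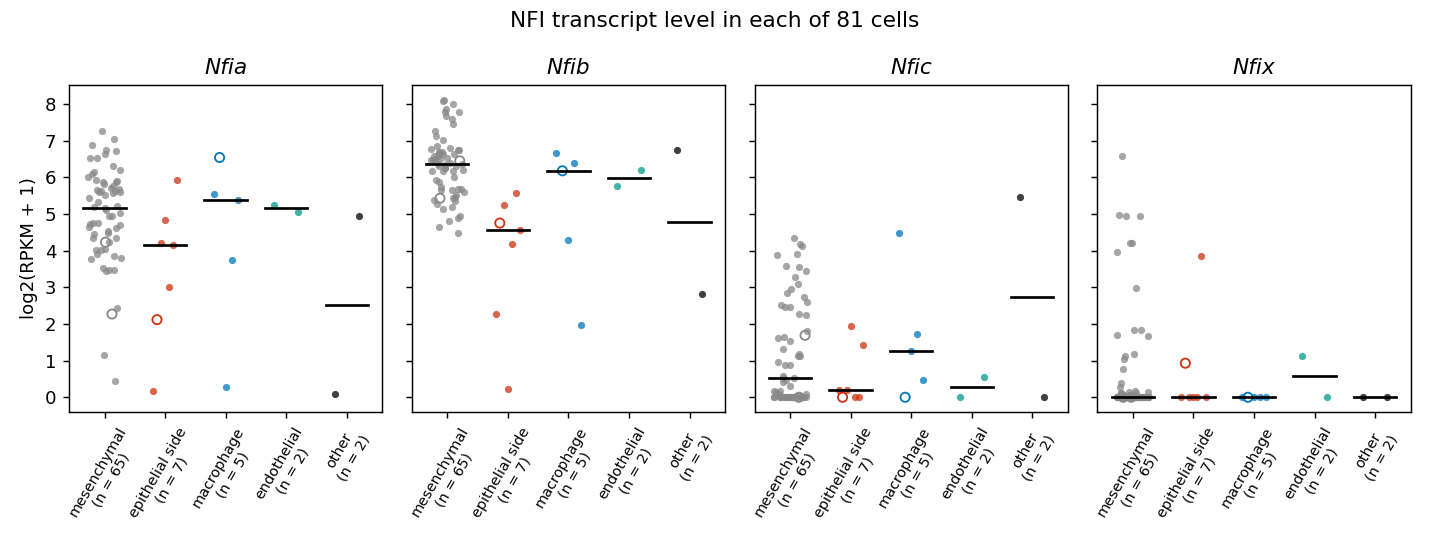
Level of each NFI gene in each cell, as log2(RPKM + 1), by marker class; each point is 1 cell, open circles are the 4 shallow cells, and bars are class medians. Nfib is at 21.4 RPKM or more in all 65 mesenchymal cells, and the endocrine cell C56 has the lowest Nfib value of all, 0.173 RPKM.

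Within a cell, Nfib and Nfia made up nearly all of the family's RPKM sum, with a median of 98.7% together. They made at least 90% of the sum in 68 of 81 cells. Nfib had a mean share of 63.2% ± 20.8 and Nfia of 31.4% ± 20.04 (SD over 81 cells), against 2.93% ± 5.54 for Nfic and 2.47% ± 7.53 for Nfix. Nfib was the highest member in 63 cells (77.8%, 67.2% to 86.3%), Nfia in 17 (21%, 12.7% to 31.5%) and Nfix in 1. Nfic led in none, which allows a share of cells of up to 3.70% by the rule of 3 counts (exact upper limit 4.45%). The lowest joint share of Nfia and Nfib, 55.7%, was in C59, the cell led by Nfix: it held 94.5 RPKM of Nfix, 71.1 of Nfib, 50.5 of Nfia and 2.15 of Nfic.

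Counting members at 1 RPKM, 39 cells held 2 of them, 35 held 3 and 6 held all 4. A single cell, the endocrine cell C24, held 1. Nfia with Nfib and no other member was the commonest combination, in 35 cells. Nfia, Nfib and Nfic were together in 24 cells, and Nfia, Nfib and Nfix in 11. All 6 cells with the full set were mesenchymal, as were 65 of all 81 cells.

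**Figure D2:**
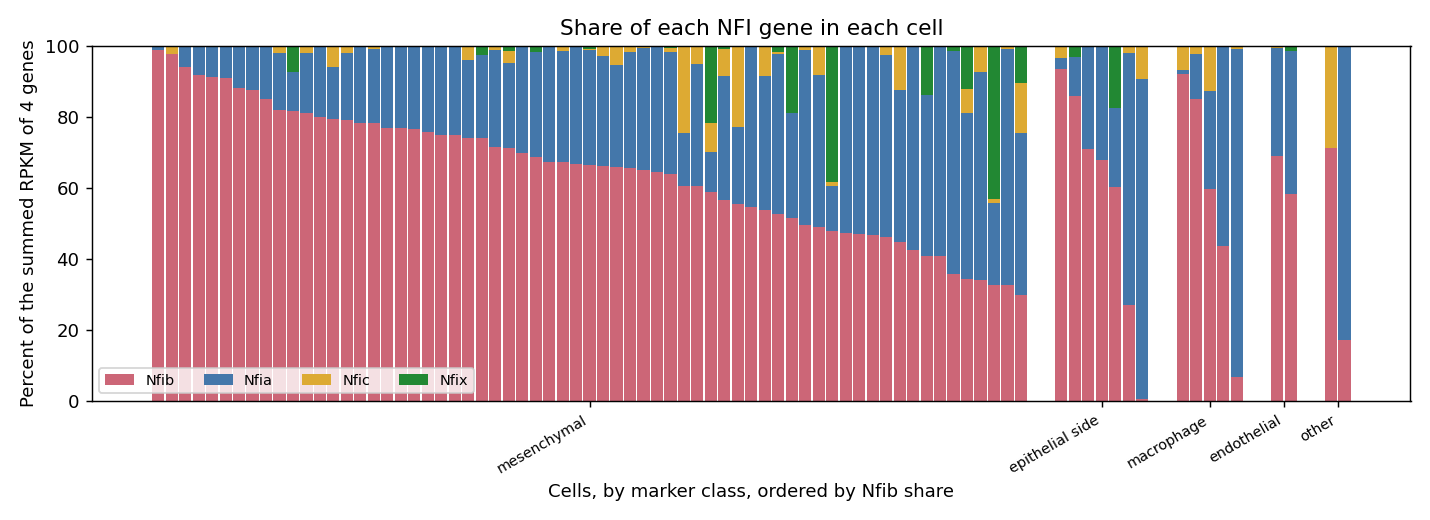
Share of each NFI gene in the summed RPKM of the 4 genes, 1 bar per cell, grouped by marker class and ordered by the Nfib share. In the mesenchymal cells the Nfib share runs from 98.8% to 29.8%, and Nfix takes up to 43.3% in C59.

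In mesenchymal cells, which at this stage surround the pancreatic epithelium, Nfib spanned 21.4 (C20), 81.3 (median) and 277 RPKM (C41). Nfia in the same cells spanned 0.367 (C81), 34.8 (median) and 153 RPKM (C11). Nfib was thus present at a substantial level in every one of the 65 cells, whereas Nfia was at 10 RPKM in 60 of them. Leaving out the 2 shallow cells, the SD of log2(RPKM + 1) over 63 cells was 0.88 for Nfib and 1.29 for Nfia. Among the 157 genes whose mean lay within 0.5 of that of Nfib, 7.64% had a smaller SD, and the median SD was 1.57. Among 287 such genes for Nfia, 10.1% had a smaller SD, with a median of 2.06. Both genes thus varied less from cell to cell than most genes of like mean level. The genes compared were not matched on transcript length, which was 9526 bases for Nfia and 8429 bases for Nfib. The part of length in this was not tested. For Nfic 5.91% of 3469 such genes had a smaller SD, and for Nfix 58.6% of 5031.

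Nfib exceeded Nfia in 53 of the 65 mesenchymal cells. The log2 ratio of Nfib to Nfia, each with 1 RPKM added, had a median of 1.17 and ran from −1.02 in C28 to 7.56 in C81. C81 held 256 RPKM of Nfib and 0.367 RPKM of Nfia, and C35 held 138 and 1.22 RPKM. Of the 81 cells, C81 and C35 had the fewest genes at 1 RPKM, 2353 and 2594, against 3653 in C28. The part of this in their ratios was not tested. C28 held 57.2 RPKM of Nfib and 117 RPKM of Nfia. Over the 63 mesenchymal cells that were not shallow, Pearson's r was 0.11 and Spearman's rho 0.21 on the log2 scale. The other 5 pairs of members had r between −0.17 and 0.11. The r with log10 estimated reads was 0.01 for Nfia, −0.21 for Nfib, 0.09 for Nfic and −0.18 for Nfix. These values describe cells of 1 sample, and values this weak are not read as a relation.

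**Figure D3:**
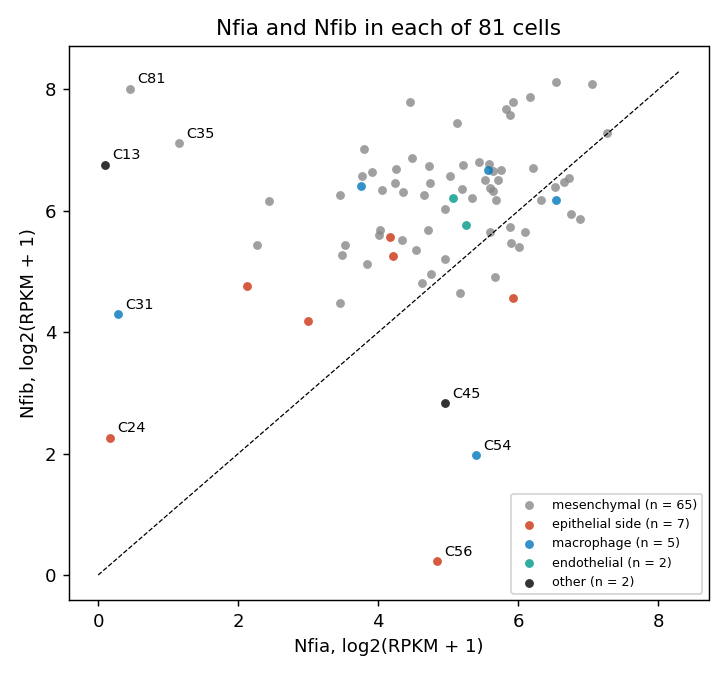
Nfib against Nfia in each of the 81 cells, both as log2(RPKM + 1); colours are marker classes, and the dashed line marks equal levels. Most cells lie above the line. C13, C24, C31, C35 and C81 lie far to the left with little Nfia, and C45, C54 and C56 lie low with little Nfib. C24 is low in both, with 3.80 RPKM of Nfib against 6.10 RPKM in C45.

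The epithelial side held less Nfib than the mesenchyme. Its 7 cells had 0.173 (C56), 3.80 (C24), 17.2 (C82), 22.5 (C95), 26 (C43), 37 (C47) and 46.3 RPKM (C91) of Nfib. The lowest 3 lie under every mesenchymal cell, and the other 4 fall in the lower part of the mesenchymal range. C91 is the only cell of the 81 with 1 RPKM of Neurog3, which encodes the factor that starts endocrine differentiation. The mean was 6.31 ± 0.87 in 65 mesenchymal cells against 3.83 ± 1.91 in the 7 cells, a difference of 2.48 in log2(RPKM + 1). Without the endocrine cells C24 and C56 it was 1.45, with C91 kept among the epithelial cells.

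Nfia in the epithelial side was 0.124 (C24), 3.34 (C43), 7.01 (C82), 16.9 (C91), 17.5 (C47), 27.6 (C56) and 59.6 RPKM (C95). The cells ran from below the lowest mesenchymal cell to above the mesenchymal median. The difference, mesenchymal minus epithelial side, was 1.49 (4.98 ± 1.32 against 3.49 ± 1.91), and it fell to 0.94 without C24 and to 0.88 with a pseudocount of 10. Nfic reached 1 RPKM in C56 (2.88 RPKM) and C95 (1.70 RPKM), and Nfix in C91 (13.5 RPKM). C43 held 0.906 RPKM of Nfix, which is an estimated 1 read. The differences for Nfic (0.69) and Nfix (0.08) were under 1. That of Nfic was 1.22 with a pseudocount of 0.1 and 0.04 when 2 markers sufficed for a class. The rule of 2 markers put C13, with 43.4 RPKM of Nfic, in the epithelial side. The difference of Nfix was 0.61 without C91 and −0.20 without the endocrine cells.

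In this comparison 2 of the 4 members were higher in the mesenchyme by at least 1 and none was lower. Of all 13237 genes above 0 in at least 3 cells, 4.28% were higher by that much and 15.7% lower (19.9% in either direction), and the median difference was −0.08. The difference of Nfib was larger than that of 99.8% of these genes and that of Nfia larger than that of 98.5%. With 1 sample there is no test of these differences, and the members were picked with earlier results of these data known. Mesenchymal markers moved with the classes: their summed level was 162 to 1258 RPKM in mesenchymal cells and 68.5 to 319 RPKM in the epithelial side, where 6 of 7 cells had at least 3 of the 12 markers at 10 RPKM. The part of such RNA in the NFI values of epithelial cells was not tested.

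The 2 endocrine cells, marked by Chga, a granin of secretory granules, differed from each other. C24 held 3.80 RPKM of Nfib and 0.124 of Nfia, so that Nfib made 93.5% of its sum. C56 held 27.6 RPKM of Nfia and 0.173 of Nfib, and Nfia made 90.04% of its sum. In estimated reads, C24 had 110.6 of Nfib and 4.1 of Nfia, and C56 had 6.0 and 1080.9. Both fell below every mesenchymal cell in Nfib, and C24 alone did so in Nfia.

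**Figure D4:**
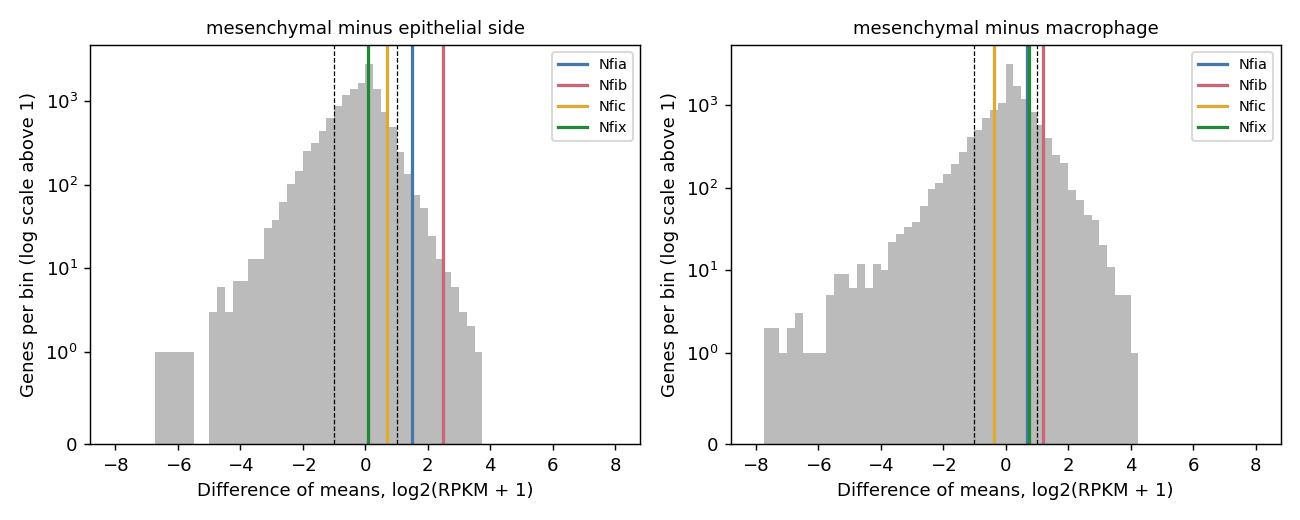
Differences of class means in log2(RPKM + 1) for the 13237 genes above 0 in at least 3 cells (grey bars, genes per bin of 0.25, log scale above 1), with the 4 NFI genes as coloured lines and dashed lines at −1 and 1. Against the epithelial side Nfib is at 2.48 and Nfia at 1.49; against macrophage cells Nfib is at 1.21 and the other members lie within 1.

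Macrophage cells were uneven. Nfib was at 2.92 (C54), 18.7 (C31), 71.5 (C3), 83.6 (C36) and 101 RPKM (C2), and Nfia at 41, 0.219, 92.3, 12.5 and 46.2 RPKM in the same order. C54 and C31 were the reverse of each other: Nfia made 92.5% of the sum in C54, and Nfib made 92.1% in C31. The mean of Nfib was 1.21 higher in mesenchymal cells and that of Nfia 0.68 higher. Single cells moved both differences across 1 or 0: without C54 the Nfib difference was 0.42, without C31 the Nfia difference was −0.33, and without the shallow cell C3 it was 1.23. Nfic reached 1 RPKM in 3 of the 5 cells, up to 21.5 RPKM in C2, and differed by −0.36, or by 0.36 without C2. Nfix was listed at 0 in all 5, for which the exact upper limit is a share of 52.2%. Its difference was 0.76, and 1.61 with a pseudocount of 0.1.

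Here 1 of 4 members was higher in the mesenchyme by at least 1, where 12.9% of the 13237 genes were, and none was lower, where 11.3% were (24.2% in either direction). C3 has 3 macrophage markers at 10 RPKM, but there 1 read of a transcript of 1 kilobase stands for 50.7 RPKM. Of the 5 macrophage cells, 4 held at least 3 mesenchymal markers, and their summed mesenchymal markers ran from 47.1 to 611 RPKM. Col1a2 was 8.42 RPKM in C54, 21.2 in C31, 196 in C3, 26.9 in C36 and 174 in C2, listed here from the lowest Nfib to the highest. The part of such RNA in these values was not tested.

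The endothelial cells C22 and C72 lay inside the mesenchymal range for both abundant members. Nfib was 53.5 and 72.8 RPKM and Nfia 37.3 and 32.5 RPKM. Nfix was 1.20 RPKM in C22 and 0 in C72, and Nfic 0 and 0.477 RPKM.

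No split within the mesenchyme moved a member by 1 or more. That bar is high for Nfix, whose mean was 0.76 in mesenchymal cells. The 37 cells with at least 5 of 25 genes of the G2/M phase at 10 RPKM had a mean Nfib level 0.41 lower than the other 28 (6.13 ± 0.85 against 6.55 ± 0.86). The differences were 0.27 for Nfia, 0.09 for Nfic and −0.02 for Nfix. Their order depends on the number of genes asked for: with 3 of 25, Nfic differed by 0.71 and Nfib by −0.49, and with 8 of 25, Nfix differed by −0.43 and Nfib by −0.59. None of the 4 was 1 apart, where 5.15% of all genes tested were higher and 0.839% lower by that much (5.99% in either direction). None was in splits by 1 RPKM of Wt1, a factor of mesothelium and visceral mesenchyme, where 4.04% of genes were higher and 1.25% lower (5.29%). None was in splits by the smooth muscle actin gene Acta2 (2.15% higher and 2.61% lower, 4.76%) or by the progenitor factor gene Sox9 (2.77% and 1.41%, 4.19%). The 2 largest of these 12 differences were those of Nfix. It was 0.70 lower in the 46 cells with Wt1 and detected in 8 of them, against 7 of 19 without. With Sox9 it was 0.65 lower, detected in 2 of 22 cells with and 13 of 43 without. Of all genes tested, 4.03% had a lower difference than Nfix in the Wt1 split and 5.23% in the Sox9 split. These 3 splits were chosen after the data had been seen.

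A list of 21 genes held 5 factors known elsewhere to act with NFI proteins and 16 genes known elsewhere as bound by or dependent on them, and 9 of these reached 1 RPKM in at least 10% of cells. Among the partners, Ski, a corepressor gene, was at 1 RPKM in 53 cells, Sox9 in 29 and Pou2f1, which encodes the octamer factor Oct-1, in 21. Foxa1 and Nkx2-1 were listed at 0 in every cell, as were Gfap, Aqp4 and Gfi1b of the other part, which allows each a share of up to 3.70% of cells with a value above 0 (3 counts; exact upper limit 4.45%) and sets no limit on cells that express it. Of the 14 list genes above 0 in at least 3 cells, 2 were higher and 2 lower by at least 1 in mesenchyme against the epithelial side, beside 4.28% higher and 15.7% lower among all genes tested. The list median was −0.01 beside −0.08 for all genes.

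The higher pair were the type I collagen genes. Col1a2 was at 1 RPKM in all 65 mesenchymal cells and all 7 of the epithelial side, and differed by 1.85. Col1a1 differed by 2.38. Both are among the markers that define the class, so their direction is not a finding. The lower pair were Sox9 (−3.37) and the cell cycle inhibitor gene Cdkn1a (−1.35), which was at 1 RPKM in 0 of 65 and 3 of 7 cells. Hes1, a Notch target gene, differed by 0.86 and Ezh2, which encodes a Polycomb methyltransferase, by −0.89. Ski (−0.04), Pou2f1 (−0.20), Fabp7 (0.18), a fatty acid binding protein gene of radial glia, and Slc1a3 (−0.64), a glutamate transporter gene, stayed within 1.

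Against macrophage cells 4 of the 14 were higher by at least 1 in the mesenchyme and 2 lower, beside 12.9% and 11.3% of all genes tested. The list median was 0.35 beside 0.13 for all genes. The higher ones were Fabp7 (2.07), Hes1 (1.97), Col1a2 (1.70) and Ezh2 (1.38). Ski was lower by that measure, with a difference of −1.73 and medians of 4.16 RPKM in mesenchymal and 27.9 RPKM in macrophage cells. The other lower gene was Eno3, a muscle enolase gene (−1.23), which reached 1 RPKM in 6 mesenchymal cells and 1 macrophage cell.

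The genes most like each member were sought by Pearson's r over the same 63 mesenchymal cells, among 2961 genes at 1 RPKM in at least 50% of them. Those most like Nfia were Hnrnpu (0.57), Srsf3 (0.49), Zrsr2, Rmi1 and Shfm1 (each 0.47), of which the first 3 encode RNA-binding proteins with roles in splicing. For Nfib they were Snora21 (0.40), Malat1 (0.39), Ash1l (0.39), Zdhhc20 (0.39) and Igf1 (0.38), a growth factor gene. The leading gene was Spcs3 for Nfic (0.39) and Clk2 for Nfix (0.44), but Nfic was at 1 RPKM in only 27 of these cells and Nfix in 15. Each name is among the 5 highest of 2961 values over 63 cells, so the list is a description and not evidence of a link.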

How the data were processed

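The deposited file lists 29510 transcript rows by 81 cells. Its unit is not stated, and the values were read as RPKM computed by the authors. A median of 78.2% of low values times transcript length lay within 0.15 of whole reads, at the step that fitted each cell best. Such steps cannot tell RPKM from another scaling of length-adjusted counts within a cell. The estimated reads hold only if the unit is RPKM. CASAVA 1.8.2 and mm9 are named per the submitters' processing notes; aligner, counter and cell filters, not given in the sources used here. Estimated reads per cell came from these steps and GENCODE vM21 lengths. For Nfix a length of 2620 bases was fitted, because the GENCODE length of 1403 left 16.7% of 12 low values whole. Reads carry no molecular identifiers, so intervals cover counting error only.

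Levels were compared as log2(RPKM + 1), which understates changes of low genes, over genes above 0 in at least 3 cells. No doublet caller was run. Coding sequences were aligned with MAFFT 7.526. The calculations of differences and read steps were tried on simulated data with known answers. Counts for the read steps were drawn with the lengths used in the estimate, so they do not check the unit or the lengths. Alternatives changed the transcript row, detection level, pseudocount, filter, marker rule, cells and clustering (scikit-learn 1.9.0).

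The members, lists and markers were chosen with earlier results of these data known. Named are the members, up to 5 genes most like each, listed partners and targets at 1 RPKM in at least 10% of cells, and class markers. Cdkn1a, Eno3, the genes at 0 and single cells were chosen after their values were seen.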

Additional observations from a re-analysis of the deposited data

How the results depend on the processing

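Of 199 recomputed values for 28 results, 9 moved by more than a wide bar: the SD over single cells on the scale of the alternative, the interval of a share, 1.5 times a count of genes, or 2 standard errors of r. A difference of class means can change sign under that bar, as those of Nfia and Nfic against macrophage cells did (−0.33 without C31, 0.36 without C2), so the other 190 are not called stable. The cause of the changes was not tested. Counting any value above 0 as detection gave 100% of cells for Nfia and Nfib, 65.4% for Nfic and 33.3% for Nfix. At 5 RPKM, Nfic was detected in 19.8% and Nfix in 11.1% of cells. Nfib was detected in 100% of cells numbered 1 to 48. The difference of Nfib, mesenchymal minus epithelial side, was 1.45 without the endocrine cells, and that of Nfic was 0.22 with a pseudocount of 10. The Nfib difference stayed at 1 or more in all 16 alternatives and that of Nfia in 14 of 16. Against macrophage cells Nfib stayed there in 11 of 13 and Nfia reached it in 5 of 13. Leaving out single cells of the smaller class was added after seeing the data. Ward clustering with the NFI genes held out named the same 2 endocrine cells and 4 of the 5 epithelial cells. It put C91, C13 and the neural or glial cell C45 in mesenchymal clusters. C3 was left as a cluster of 1 cell, mesenchymal by its markers. No paired analysis was possible because all cells form 1 group. The Nfic difference reached 1 in 1 of 16 alternatives against the epithelial side and 0 of 13 against macrophage cells, and the Nfix difference in 0 of 16 and 1 of 13.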

Other observations

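Cells outside the larger classes had uneven NFI levels. C45, the cell with neural or glial markers, held 29.9 RPKM of Nfia and 6.10 RPKM of Nfib, and Nfia made 83.05% of its sum. Nfic and Nfix were listed at 0 there. C13, which reached 3 markers of no list, held 107 RPKM of Nfib, 0.073 RPKM of Nfia and 43.4 RPKM of Nfic, the highest Nfic value of all 81 cells. Nfic made 28.8% of the sum in C13, also its highest share. The summed mesothelial markers of C13, 322 RPKM, were the highest of all cells, against at most 48.7 RPKM in mesenchymal cells. Only 1 of these markers was at 10 RPKM in C13, and another, Msln, did not reach 1 RPKM in any cell. Whether C13 was a mesothelial cell was not tested.

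The highest cells of the scarce members were compared with the cells that share an index with them. Nfix reached 1 RPKM in 1 of 13 cells that share an index with C59 (7.69%), and in 15 of 67 cells that share none (22.4%). Counting any value above 0 the order was the other way, 6 of 13 against 20 of 67 cells. Nfic did so in 8 of 16 cells that share an index with C13 (50%) and in 25 of 64 that share none (39.1%), and it was above 0 in 11 of 16 and 41 of 64. Carry-over of reads between libraries was not tested further. The highest values in cells sharing an index were 2.55 RPKM of Nfix (C60) and 4.56 RPKM of Nfic (C66), against 30.3 RPKM (C93) and 21.5 RPKM (C2) in cells sharing none.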
